A study of Homo sapiens with 6 samples.

Results

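Cytosolic ribosomal protein genes were followed across RNA sequencing of AGS and HGC-27, both human gastric cancer lines. A gene was a member when its name was RPL or RPS, then digits, then nothing or one of A, X, L, L1 and AL; RPLP0, RPLP1, RPLP2 and RPSA were added. This gave 85 of the 51103 genes in the tables, 53 of the large and 32 of the small ribosomal subunit. Cells of each line carried a lentivirus for overexpression of NINJ1, a cell surface protein that ruptures the plasma membrane in lytic cell death, or a negative control virus, and were lysed in their wells after 48 hours. There were 2 AGS libraries labelled NINJ1, 1 AGS control, 2 HGC-27 libraries labelled NINJ1 and 1 HGC-27 control, all from polyadenylated RNA. Nothing in the labels says that the 2 replicates of a line came from separate cultures, so the p-values reflect the spread among the libraries at hand, which may be technical.

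The cytosolic ribosome is built from a large subunit, which forms peptide bonds, and a small subunit, which decodes the mRNA, and nearly every ribosomal protein is present once in each. Their mRNAs are among the most abundant of growing cells, and most start with a run of pyrimidines, the 5′ terminal oligopyrimidine (TOP) motif, through which mTOR and LARP1 control their translation and stability. Several members have a paralogue, a duplicated copy elsewhere in the genome, that can enter the ribosome or is made in other amounts in other tissues.

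Several facts of the series bear on every value. Totals ran from 12619684 to 18175697 counts per library. The line of replicate 2 of each NINJ1 pair is given one way in its title and the other way in its file name, and the file names are followed here. In the check that follows, each replicate 2 library matched the line in its file name and not the line in its title. Among the 4 libraries whose names do not conflict, 15 genes had 100 counts or more in each HGC-27 library and 0 in each AGS library; all 15 had at least 10 counts in the replicate 2 library named HGC-27 and 0 did in the one named AGS; of 13 genes with the converse pattern, 13 had as many in the library named AGS and 0 in the one named HGC-27. NINJ1 itself, in CPM of the TMM-scaled library total (scaled CPM), was at 19.5 and 15.9 in the AGS libraries labelled NINJ1, against 28.4 in the AGS control, and at 17.3 and 19.1 in the HGC-27 libraries labelled NINJ1, against 4.89 in the HGC-27 control. The target was thus lower, not higher, in the AGS libraries labelled NINJ1 (log2 difference -0.68, SE 0.19, adjusted p 0.0148, edgeR quasi-likelihood test), and AGS NINJ1 stands for the AGS libraries labelled NINJ1 throughout. The HGC-27 control stood apart: genes of over 60% GC took 2.31% of its counts, against 9.25% to 11.3% in the other 5 libraries, its TMM factor was 0.799, and mitochondrial-encoded genes took 6.50% of its counts, against 2.78% to 5.00% elsewhere. Of 8 markers of blood, endothelial and fibroblast cells, summed FPKM was 4.15 and 4.50 in AGS NINJ1, 12.7 in the AGS control, 6.13 and 7.05 in HGC-27 NINJ1 and 1.49 in the HGC-27 control; CD3E was at 0 in all libraries and PTPRC at 0 or 1 count. Of the epithelial markers, KRT8 and KRT18 were abundant in both lines, while KRT19 had at most 1 count and CDH1 at most 4 counts in AGS libraries.

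RefSeq start sites (build GRCh38.p14) were found for 68 of the 85 members, and 47 of these (69.1%) had a listed start that was C followed by at least 4 of C or T on the transcribed strand, against 1404 of 27305 genes in the table (5.14%) and 6 of 69 genes of the mitochondrial ribosome (8.70%). By subunit the motif was found in 29 of 43 large and 18 of 25 small members with a start site. The starts of paralogues and their parent genes are shown because they differ in it. Each window holds 10 bases before the start and 20 from it, 5′ to 3′ on the gene's strand, with capitals marking an unbroken run of C and T at the start:
RPL22 (chr1:6199576-6199605, minus strand): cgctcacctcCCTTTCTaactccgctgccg
RPL22L1 (chr3:170870176-170870205, minus strand): ccgtagcttcCTCTCTgctctcgcggccga
RPL26 (chr17:8383174-8383203, minus strand): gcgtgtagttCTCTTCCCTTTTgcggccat
RPL26L1 (chr5:172958719-172958748, plus strand): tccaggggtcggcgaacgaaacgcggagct
RPS27 (chr1:153990752-153990781, plus strand): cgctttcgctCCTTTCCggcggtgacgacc
RPS27L (chr15:63157458-63157487, minus strand): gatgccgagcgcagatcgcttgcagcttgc
RPL36A (chrX:101391001-101391030, plus strand): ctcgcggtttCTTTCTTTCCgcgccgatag
RPL36AL (chr14:49620607-49620636, minus strand): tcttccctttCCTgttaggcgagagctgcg

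The parents RPL22, RPL26, RPS27 and RPL36A had runs of 7, 12, 7 and 10 pyrimidines. RPL22L1 also carried the motif, with a run of 6, whereas RPL26L1 and RPS27L had none at these starts and RPL36AL had a run of 3. RPL7L1 had none either. A match is a description of the annotated start and says nothing of the start used in these cells.

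Members took 3.81% and 3.94% of all counts in AGS NINJ1, 4.30% in the AGS control, 3.25% and 3.82% in HGC-27 NINJ1, and 4.08% in the HGC-27 control. In each line both NINJ1 libraries lay below the control. In AGS both lay further below it than they lay apart, whereas in HGC-27 replicate 2 lay closer to the control (3.82% against 4.08%) than to replicate 1 (3.25%). With mitochondrial-encoded genes left out of the total the shares were 3.94% and 4.05% against 4.53% in AGS, and 3.38% and 3.96% against 4.36% in HGC-27. These were bulk samples, so fewer copies per cell and fewer cells with the RNA cannot be told apart.

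FPKM divides by gene length and so allows genes to be compared. RPS2, whose protein lines the mRNA entry of the small subunit, had the highest mean FPKM over the 6 libraries (549), then RPL7A (522) and RPS12 (473). RPL10L, a testis paralogue of RPL10, had no count in any library, and RPL3L, a muscle paralogue of RPL3, had 0 to 7 counts. These 2 were not tested, which left 83 members. RPL17 was the lowest tested member, at 0.52 FPKM on average. The median of the 83 was 125 FPKM.

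The order of FPKM depends on the length used. The deposited FPKM used 1 fixed length per gene, from 746 bases for RPL36AL to 9845 bases for RPS29, whose principal transcript has 296 bases. Per kilobase of the principal transcript, RPLP0, a stalk protein of the large subunit, was highest at 1408 CPM per kilobase, with RPS2 at 1345 and RPL7A at 1314. RPL17 was lowest on this scale too.

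Counting of near-identical copies adds a limit. Of 1144 rows named as pseudogenes of members, 442 had counts, in sum 25888 against 3391648 for the members. For RPS10 the pseudogene rows held 80.5% of the combined counts, for RPL23A 46.1% and for RPL17 45.4%; levels of these genes are uncertain. RPS10, RPL17 and RPL36A also overlap read-through genes on the same strand (RPS10-NUDT3, RPL17-C18orf32 and RPL36A-HNRNPH2), as RPS15A, RPL26, RPL22, RPL36 and RPS13 overlap other coding genes.

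The summed FPKM of large-subunit members over that of small-subunit members was, on the log2 scale, 0.36 and 0.39 in AGS NINJ1, 0.40 in the AGS control, 0.34 and 0.44 in HGC-27 NINJ1, and 0.18 in the HGC-27 control. The HGC-27 control was the only library below 0.34. With medians in place of sums the ratio had the opposite sign in all 6 libraries (-0.79 and -0.71 in AGS NINJ1, -0.70 in the AGS control, -0.51 and -0.27 in HGC-27 NINJ1, -0.78 in the HGC-27 control). The sums thus do not say which subunit's genes were higher.

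The lines were compared first in the 4 NINJ1 libraries, 2 of AGS against 2 of HGC-27, the only groups here with replicates. Many members differed, in both directions. Of the 83 tested members, 32 were higher and 13 lower in AGS at an adjusted p under 0.05 (edgeR quasi-likelihood test, Benjamini-Hochberg over 17617 genes), where 40.2% of all tested genes were called, 20.2% higher and 20% lower. The median member difference was 0.08 on the log2 scale, against -0.0057 for all genes. After GC correction 35 were higher and 18 lower, where 43.8% of all genes were called (21.3% higher and 22.6% lower). By subunit, 17 of 51 large members were higher and 9 lower, and 15 of 32 small members were higher and 4 lower. The counts rested in part on single libraries: without HGC-27 NINJ1 replicate 1 they were 29 higher and 30 lower, where 22.2% of all genes were higher and 23% lower, and without AGS NINJ1 replicate 2 they were 17 and 13, where 14.2% were higher and 13.5% lower. With the lines as titled, edgeR called 0 members and 0% of all genes in either direction, and 0 members had an unadjusted p under 0.05.

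**Figure D1:**
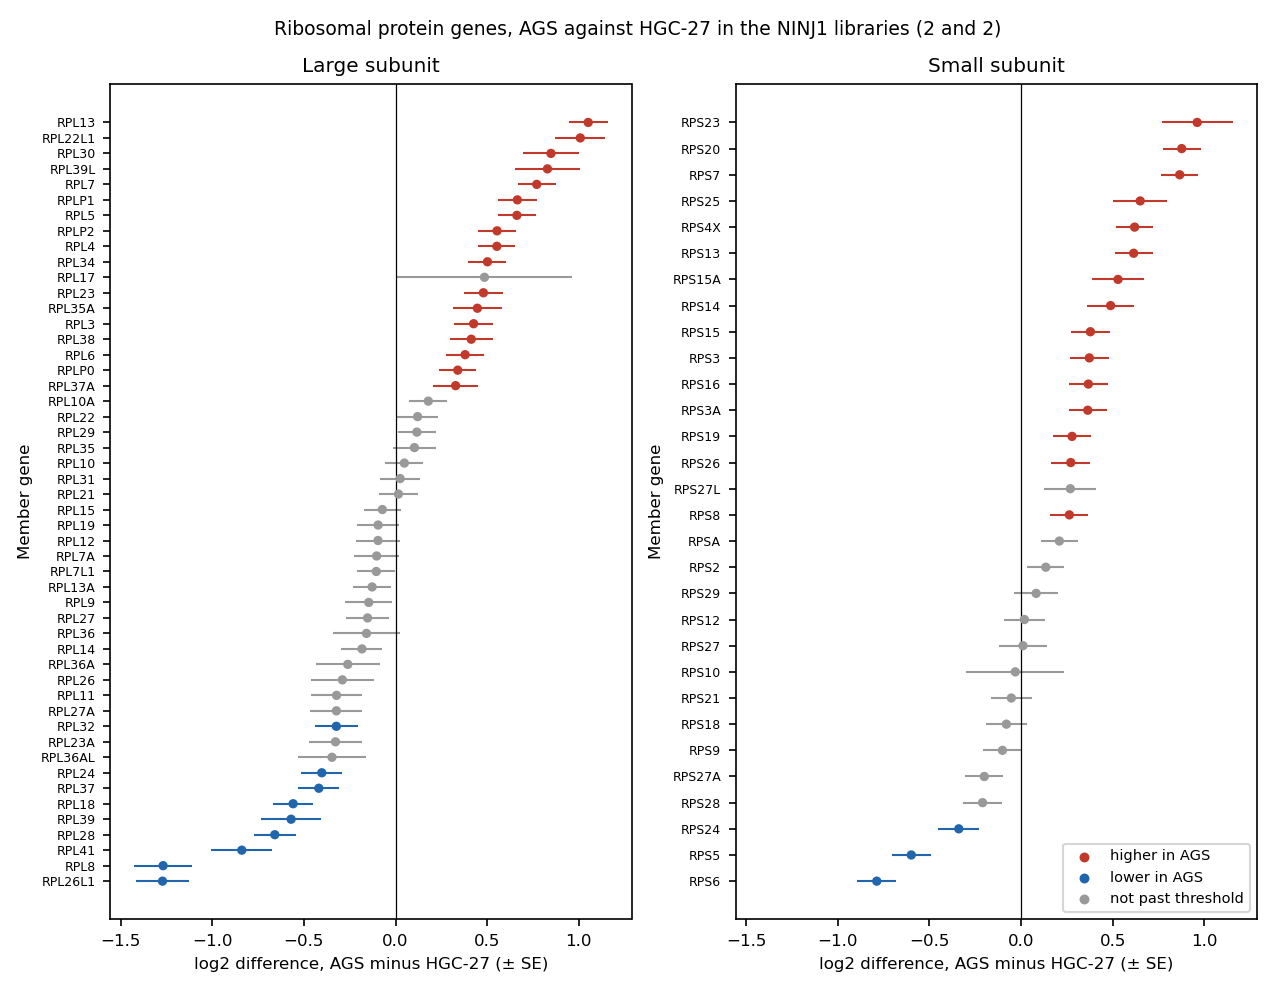
Log2 difference of tested members, AGS minus HGC-27, in the NINJ1 libraries (2 and 2), with standard errors as lines; large-subunit members on the left, small-subunit members on the right. Values span -1.27 to 1.05 in the large subunit and -0.79 to 0.96 in the small subunit.

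RPL13, of the large subunit, had the largest positive difference. It was at 1142 and 1137 scaled CPM in AGS NINJ1, against 497 and 603 scaled CPM in HGC-27 NINJ1, with 1290 in the AGS control and 331 in the HGC-27 control. Every AGS library lay above every HGC-27 library. The log2 difference was 1.05 (SE 0.11, adjusted p 7.54e-10, edgeR).

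RPL22L1, the paralogue of the RNA-binding protein RPL22, was at 49.5 and 45.2 scaled CPM in AGS NINJ1, against 24.5 and 22.6 scaled CPM in HGC-27 NINJ1 (log2 difference 1.01, SE 0.14, adjusted p 2.58e-07, edgeR). The controls lay between these pairs and near each other, at 32.8 in AGS and 31.4 in HGC-27. Before GC correction the difference between lines was therefore seen in the NINJ1 libraries and not between the 2 controls. After GC correction RPL22L1 was higher in AGS over all 6 libraries (log2 difference 0.82, adjusted p 0.00842, edgeR). The 2 lines' contrasts of NINJ1 with control then differed by 0.36 (adjusted p 0.163, edgeR).

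RPS20, RPS7 and RPL7 were also higher in AGS. RPS20, which helps form the head of the small subunit, was at 458 and 490 scaled CPM in AGS NINJ1, against 254 and 262 in HGC-27 NINJ1 (log2 difference 0.88, SE 0.10, adjusted p 1.60e-08, edgeR). RPS7, which binds MDM2 when ribosome assembly is disturbed, was at 514 and 509 scaled CPM, against 273 and 289 in HGC-27 NINJ1 (0.87, SE 0.10, adjusted p 1.92e-08, edgeR). RPL7 was at 657 and 715 scaled CPM, against 390 and 415 in HGC-27 NINJ1 (0.77, SE 0.10, adjusted p 1.98e-07, edgeR). For RPS20 and RPL7 the controls went the other way: RPS20 was at 540 scaled CPM in the AGS control and 1073 in the HGC-27 control, and RPL7 at 845 and 1654. For RPS7 the controls were close to each other, at 522 in AGS and 507 in HGC-27.

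RPL26L1, a paralogue of RPL26, was lower in AGS in every library. Its levels were 18.5 and 18.6 scaled CPM in AGS NINJ1, against 40.5 and 49.3 in HGC-27 NINJ1, with 16.6 in the AGS control and 66.6 in the HGC-27 control. The log2 difference was -1.27 (SE 0.14, adjusted p 6.35e-09, edgeR). RPL8, a large-subunit protein at the base of the peptidyl transferase centre, was at 300 and 330 scaled CPM in AGS NINJ1, against 514 and 1003 in HGC-27 NINJ1 (-1.27, SE 0.16, adjusted p 5.93e-08, edgeR). Its HGC-27 replicates lay far apart, and before GC correction the controls went the other way, at 421 in AGS and 224 in HGC-27. With that correction RPL8 was lower in AGS over all libraries (-1.22, adjusted p 0.00992, edgeR).

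RPS6, the substrate of S6 kinase, was at 514 and 566 scaled CPM in AGS NINJ1, against 864 and 1001 in HGC-27 NINJ1, and at 633 in the AGS control, against 2429 in the HGC-27 control. Its log2 difference in the NINJ1 libraries was -0.79 (SE 0.11, adjusted p 2.14e-07, edgeR). RPL28, which has no counterpart in Saccharomyces cerevisiae, was at 209 and 206 scaled CPM, against 284 and 372 in HGC-27 NINJ1 (-0.66, SE 0.11, adjusted p 1.53e-05, edgeR). Its controls went the other way before GC correction, at 264 in AGS and 179 in HGC-27. With that correction RPL28 was lower in AGS over all libraries (-0.57, adjusted p 0.0213, edgeR).

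**Figure D2:**
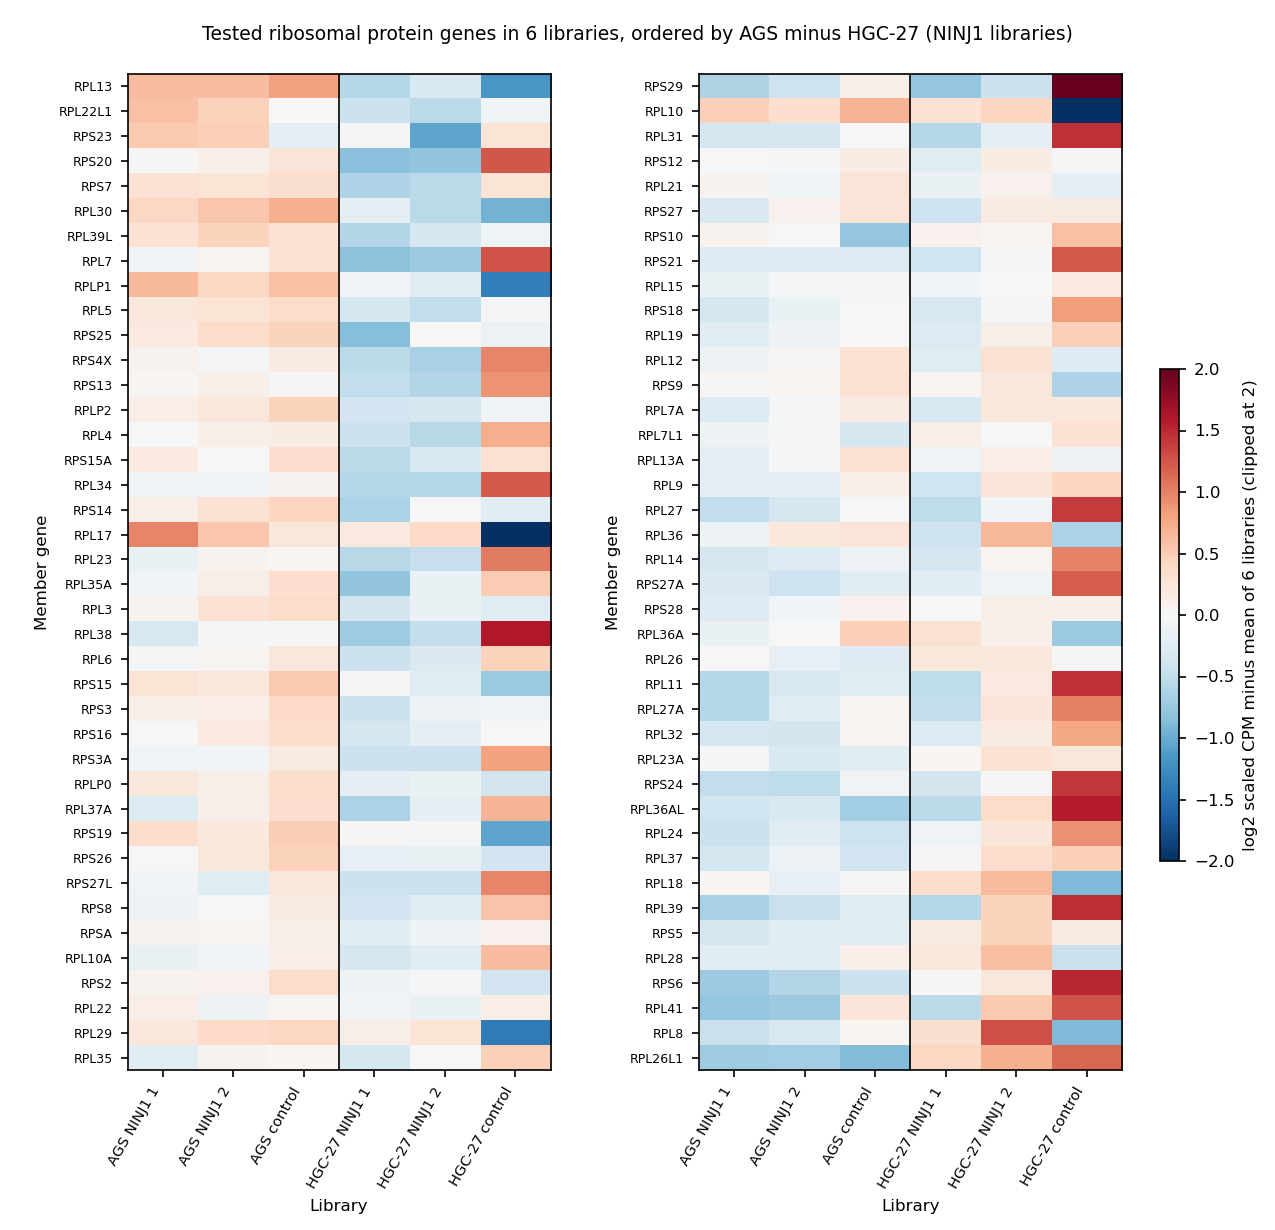
Log2 scaled CPM of tested members in each library minus the mean of that member over the 6 libraries, with colours clipped at 2; members are ordered by the AGS minus HGC-27 difference in the NINJ1 libraries. The last column, the HGC-27 control, stands apart from the others in many members, for example RPL10 (99.0 scaled CPM there, 563 to 739 elsewhere) and RPS29 (399 there, 54.4 to 100 elsewhere).

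With all 6 libraries and treatment as a term, AGS against HGC-27 called 1 member higher and 1 lower, where 6.14% of all tested genes were called (3.27% higher and 2.87% lower). RPL13 was higher (log2 difference 1.35, SE 0.26, adjusted p 0.0399, edgeR) and RPL26L1 lower (-1.51, SE 0.25, adjusted p 0.0254, edgeR). Both lost the call when any 1 of the 4 NINJ1 libraries was left out, with adjusted p from 0.115 to 0.203, while leaving out either control gave the counts of the 4 NINJ1 libraries, 32 higher and 13 lower. DESeq2 called 3 higher and 3 lower, RPL13 and RPL26L1 among them, where it called 12% of genes with an adjusted p (6.65% higher and 5.32% lower). A correction for GC content gave 6 higher and 8 lower, where it called 21.9% of all genes (10.8% higher and 11.1% lower). With limma on log2(FPKM + 1) 3 were higher and 1 lower, where 7.72% of all genes were called (4.53% higher and 3.19% lower).

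Members were spread over most chromosomes, so each could be set beside its chromosomal neighbours, the tested protein-coding genes within 5000000 bases of it (windows of members that lie close together share genes). In the NINJ1 libraries the AGS minus HGC-27 difference of a member and the median difference of its neighbours had a Pearson correlation of 0.68 and a Spearman correlation of 0.59 across the 83 members, given as a description across genes of the same 4 libraries. All 13 members called lower had neighbours with a negative median, and 20 of the 32 called higher had neighbours with a positive one, whereas the neighbours' median was positive for 27 of all 83.

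**Figure D3:**
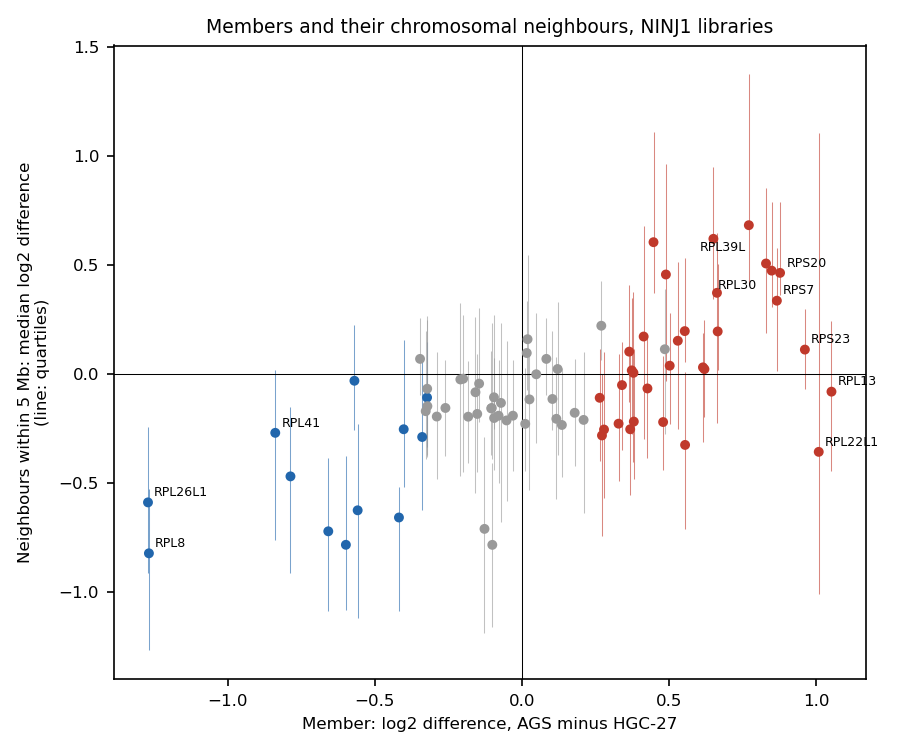
Log2 difference of tested members, AGS minus HGC-27, in the NINJ1 libraries (x axis) and the median log2 difference of tested protein-coding genes within 5000000 bases (y axis, with quartiles as lines); red marks members called higher, blue lower, grey not past the threshold. RPL26L1 and RPL8 lie at the low end of both axes, and RPL13 and RPL22L1 have neighbours below 0.

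The correspondence was seen at both ends. RPL7 on chromosome 8 differed by 0.77 and its 18 neighbours by a median of 0.68, and RPS20 by 0.88 with 0.46 for its 23 neighbours. Elsewhere on the same chromosome RPL8 differed by -1.27 and its 80 neighbours by -0.82. RPL28 on chromosome 19 differed by -0.66 with -0.72 for 149 neighbours, RPS6 on chromosome 9 by -0.79 with -0.47 for 22, and RPL26L1 on chromosome 5 by -1.27 with -0.59 for 56. RPL13 on chromosome 16 and RPL22L1 on chromosome 3 departed from theirs, with neighbours at -0.081 (58 genes) and -0.36 (21 genes). The copy number of these regions was not measured here, and its part in the differences was not tested.

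Paralogues were set against their parents as a ratio of FPKM within each library. RPL22L1 was at 91.8% and 98.3% of RPL22 in AGS NINJ1, 64.1% in the AGS control, 52.2% and 50.3% in HGC-27 NINJ1, and 57.9% in the HGC-27 control. The AGS NINJ1 libraries stood above the other 4. The size of the ratio depends on the FPKM lengths, and RPL22 overlaps another coding gene, so near-equal levels are uncertain. Summed over the libraries, counts were 2940 for RPL22L1 and 8644 for RPL22. RPL22 itself was at 109 and 92.6 scaled CPM in AGS NINJ1, against 94.5 and 90.4 in HGC-27 NINJ1, and was not called in this comparison (log2 difference 0.12, SE 0.11, adjusted p 0.419, edgeR).

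RPL26L1 exceeded RPL26 in all libraries, at 286% and 323% of it in AGS NINJ1, 307% in the AGS control, 541% and 659% in HGC-27 NINJ1 and 1013% in the HGC-27 control, and the lines did not overlap. RPL26 shares its position with another coding gene, so its own level is uncertain. RPL39L, a paralogue of RPL39 known from the male germline and from cancers, was at 20.0% and 19.2% of RPL39 in AGS NINJ1, 14.9% in the AGS control, 10.2% and 6.02% in HGC-27 NINJ1, and 3.51% in the HGC-27 control. Again the lines did not overlap. RPL39L was higher in AGS in the NINJ1 libraries (log2 difference 0.83, SE 0.17, adjusted p 0.000234, edgeR) and RPL39 lower (-0.57, SE 0.16, adjusted p 0.00527, edgeR). The RPL39 difference was 0.024 without HGC-27 NINJ1 replicate 2, and DESeq2 did not call it (adjusted p 0.453).

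**Figure D4:**
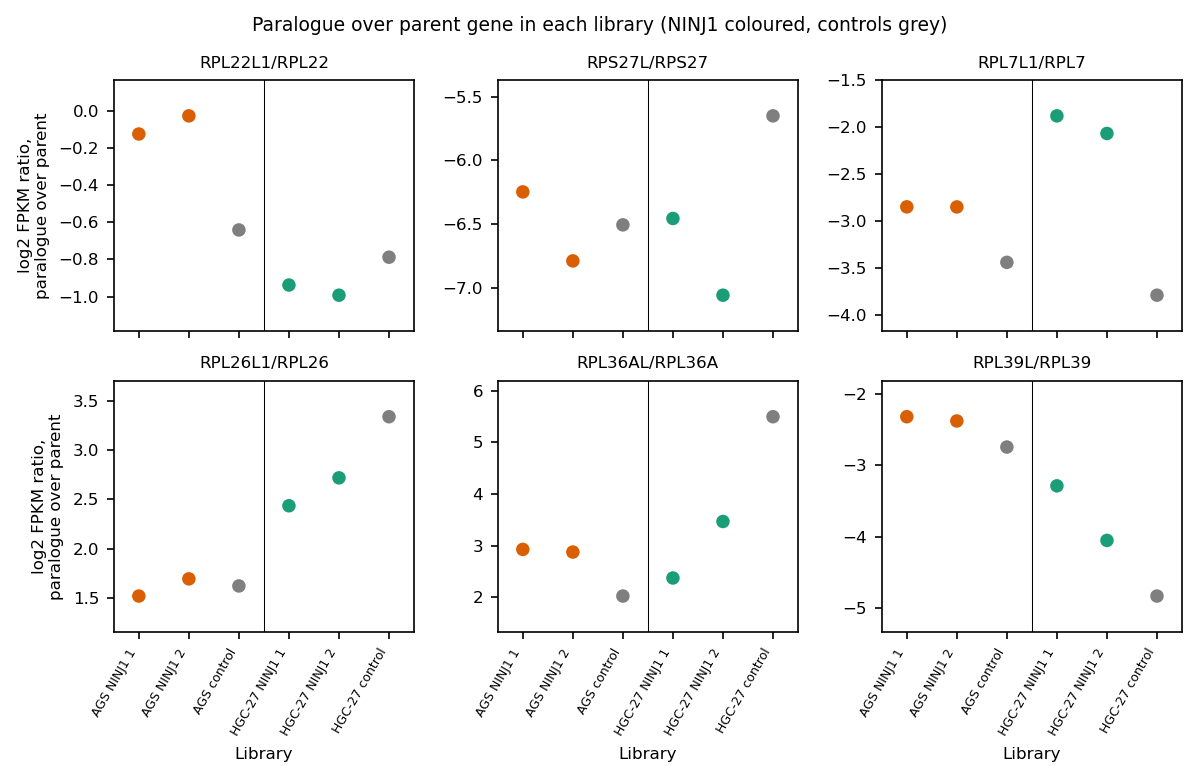
Log2 ratio of FPKM, paralogue over parent gene, in each of the 6 libraries, with 1 panel for each pair and a scale of its own; NINJ1 libraries are coloured and controls grey. RPL22L1 over RPL22 is highest in the AGS NINJ1 libraries (-0.12 and -0.025), and RPL26L1 over RPL26 is higher in every HGC-27 library (2.44 to 3.34) than in any AGS library (1.52 to 1.69).

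RPL7L1, which takes part in ribosome assembly in the nucleolus, was at 13.9% of RPL7 in both AGS NINJ1 libraries, 9.23% in the AGS control, 27.2% and 23.9% in HGC-27 NINJ1, and 7.25% in the HGC-27 control. RPS27L was at 1.32% and 0.91% of RPS27 in AGS NINJ1, 1.10% in the AGS control, 1.14% and 0.75% in HGC-27 NINJ1, and 1.99% in the HGC-27 control, but its FPKM length was 9127 bases, against 1035 for RPS27. RPL36AL exceeded RPL36A in all libraries, at 761% and 735% in AGS NINJ1 and 407% in the AGS control, and at 519% and 1107% in HGC-27 NINJ1 and 4519% in the HGC-27 control. The size of this excess is uncertain, as RPL36AL had the shortest FPKM length of the members and RPL36A overlaps a read-through gene. Summed over the libraries, their counts were 2411 and 1213. RPL3L reached at most 0.08% of RPL3.

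In AGS most members were slightly lower in the libraries labelled NINJ1 than in the control. Both libraries labelled NINJ1 lay below the control for 63 of 83 members and above it for 12. The same count was not made over all genes, so whether members differ from them in it was not tested. Past the threshold, 2 members were higher and 6 lower, where 15% of all tested genes were called (5.73% higher and 9.3% lower), and the median member difference was -0.21, against 0.0036 for all genes. Large-subunit members had a median of -0.19 and small-subunit members of -0.22. There was 1 control, assumed to vary like the NINJ1 pairs, and NINJ1 itself was lower in the libraries labelled NINJ1. The lower count was 1 without AGS NINJ1 replicate 1 and 4 without AGS NINJ1 replicate 2, where 5.93% and 4.2% of all genes were lower. It was 36 without either HGC-27 NINJ1 library, where 14.5% of all genes were lower, and no member was higher without either AGS NINJ1 library. A GC correction gave 1 higher and 15 lower, where it called 18.7% of all genes (8.49% higher and 10.2% lower); limma on log2(FPKM + 1) called 0 (7 at an unadjusted p under 0.05) and 6.91% of all genes, and DESeq2 0 higher and 4 lower, where 3.23% of genes were higher and 6.15% lower.

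RPL41, the shortest ribosomal protein, was at 119 and 123 scaled CPM in the AGS libraries labelled NINJ1, against 239 in the AGS control (log2 difference -0.98, SE 0.20, adjusted p 0.000596, edgeR), but DESeq2 gave an adjusted p of 0.378. RPS29, of the head of the small subunit, was at 61.0 and 69.7 scaled CPM, against 100 in the AGS control (-0.61, SE 0.14, adjusted p 0.00263, edgeR). RPS24 (-0.43), RPL13A (-0.40), RPL27 (-0.43) and RPL32 (-0.42) were lower by similar amounts, with adjusted p of 0.0262, 0.0308, 0.0338 and 0.0394 (edgeR). RPS24 is one of the genes mutated in Diamond-Blackfan anaemia.

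RPL22L1 was higher in the AGS libraries labelled NINJ1, at 49.5 and 45.2 scaled CPM, against 32.8 in the AGS control (log2 difference 0.53, SE 0.17, adjusted p 0.0282, edgeR). The adjusted p was 0.137 and 0.245 without either AGS NINJ1 library, and 0.153 with DESeq2. RPS23, of the decoding centre, was at 30.1 and 29.2 scaled CPM, against 18.4 (0.69, SE 0.24, adjusted p 0.0493, edgeR). Its difference was about as large with DESeq2's size factors (0.67, adjusted p 0.0695, edgeR) and after GC correction (0.63, adjusted p 0.0597, edgeR), without passing the threshold. Markers of other cell types also moved here, where 5.73% of all genes were higher and 9.3% lower. Of the 5 tested, 3 (PDGFRB, COL1A1 and PECAM1) were lower in the AGS libraries labelled NINJ1. So were 1 of 4 epithelial markers (KRT8) and 1 of 3 mesenchymal markers (FN1). The other mesenchymal markers lay above the AGS control: VIM at 410 and 465 scaled CPM, against 384, and ZEB1 at 118 and 123, against 93.4. The markers' part in these differences was not tested.

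In HGC-27 members moved strongly and in both directions against a control library of unusual composition. Of 83 members, 17 were higher and 42 lower in NINJ1, where 63% of all tested genes were called (34% higher and 29.1% lower). The median member difference was -0.38, against 0.12 for all genes; large-subunit members had a median of -0.37 and small-subunit members of -0.61. The split differed under other processing: 9 higher and 53 lower after GC correction, where 49.2% of all genes were called (22.8% higher and 26.4% lower), and 24 higher and 27 lower with limma on log2(FPKM + 1), which changes the unit, the filter and the test together and called 43.4% of all genes higher and 18% lower; its median was -0.0014 for members and 0.32 for all genes. DESeq2's size factors gave 16 higher and 46 lower, where 32.7% of all genes were higher and 30.6% lower. Scaling without members and mitochondrial genes gave 17 and 42, where 33.8% were higher and 29.3% lower. Both NINJ1 libraries lay below the control for 53 members and above it for 24, a count not made over all genes. Of the 5 tested markers of other cell types, COL1A1 was higher and PECAM1 lower in HGC-27 NINJ1. All 4 tested epithelial markers were lower (median -1.21), as were all 3 mesenchymal markers (median -1.15), among them VIM at 243 and 224 scaled CPM, against 522 in the HGC-27 control, and FN1 at 86.7 and 91.1, against 198. The markers' part in these differences was not tested.

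**Figure D5:**
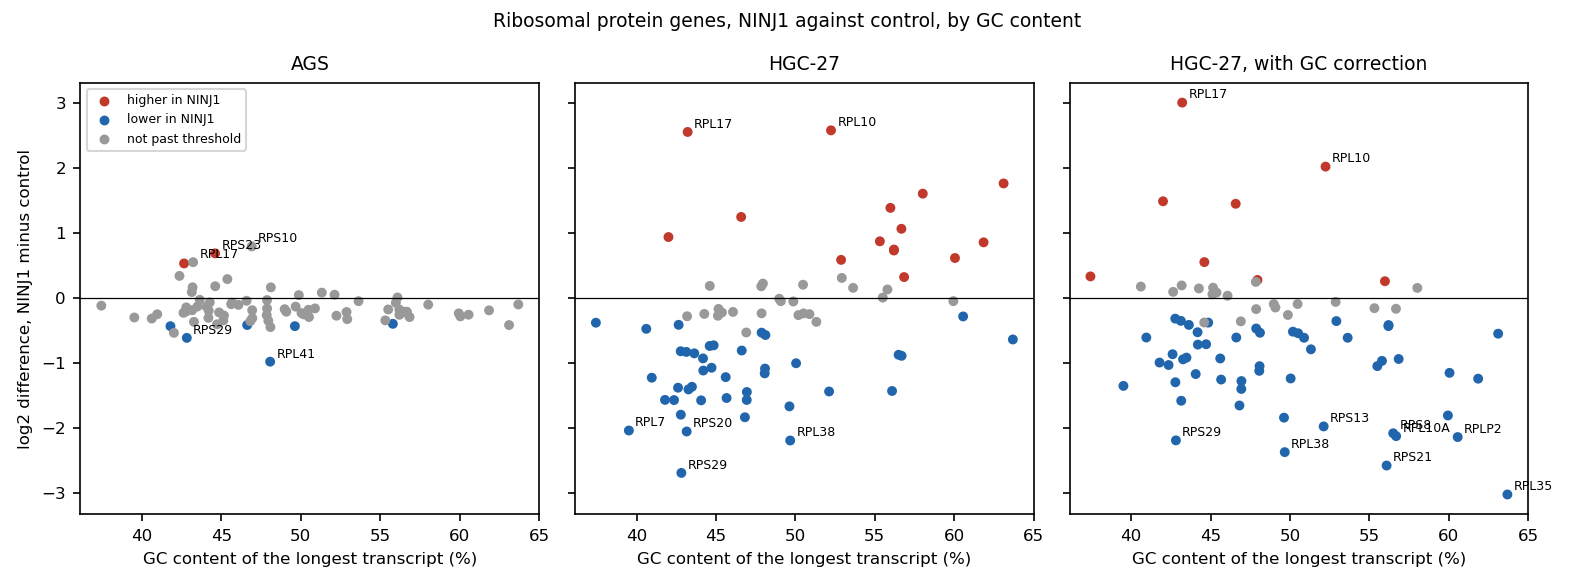
Log2 difference of tested members, NINJ1 minus control, by the GC content of its longest transcript, in AGS, in HGC-27 and in HGC-27 after a correction for GC content of each library; red marks members called higher, blue lower. In HGC-27 before correction, members of 55% GC and over had a median of 0.47 and those under 45% of -0.93; after it the medians were -1.01 and -0.53.

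The HGC-27 difference followed GC content. Among 27 members under 45% GC, 2 were higher and 22 lower in NINJ1, with a median of -0.93, and among 20 members of 55% GC and over, 11 were higher and 6 lower, with a median of 0.47. Of all genes 34% were higher and 29.1% lower. Other genes were not counted by GC class, so the trend is not shown to be particular to members. Across the 83 members the Pearson correlation of the difference with GC was 0.41 (Spearman 0.48). After the correction it was -0.29 (Spearman -0.23), and the median was -0.53 under 45% GC and -1.01 from 55% GC. The correction thus left members under 45% GC lower in NINJ1. It turned the median of members of 55% GC and over from higher to lower. The correlation with GC changed sign, and whether the correction took out more than the GC effect was not tested. In AGS the medians of the same classes were -0.19 and -0.23. The 8 members with a principal transcript under 500 bases had a median of -1.30 in HGC-27 and of -0.33 in AGS; whether the library's handling of short transcripts had a part was not tested.

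RPS29 was lowest against its control, at 54.4 and 69.0 scaled CPM in HGC-27 NINJ1, against 399 in the HGC-27 control (log2 difference -2.69, SE 0.14, adjusted p 3.00e-17, edgeR; -2.19 after GC correction). RPL38, which in the mouse is needed for translation of Hox mRNAs, was at 68.0 and 80.2 scaled CPM, against 339 (-2.19, SE 0.13, adjusted p 1.72e-15, edgeR; -2.37 after correction). RPS20 was at 254 and 262 scaled CPM, against 1073 (-2.05, SE 0.12, adjusted p 6.15e-16, edgeR; -1.58 after correction). For these the replicates were close and the control stood far above them.

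RPL7 was at 390 and 415 scaled CPM in HGC-27 NINJ1, against 1654 in the HGC-27 control (log2 difference -2.04, SE 0.12, adjusted p 7.62e-16, edgeR; -1.35 after GC correction). RPL34 was at 150 in both NINJ1 libraries, against 521 in the control (-1.80, SE 0.12, adjusted p 1.61e-14, edgeR; -1.30 after correction). These 5 members were lower after the correction too.

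Among the members higher in HGC-27 NINJ1, RPL10, which acts late in maturation of the large subunit, was at 563 and 620 scaled CPM, against 99.0 in the HGC-27 control (log2 difference 2.58, SE 0.15, adjusted p 4.00e-16, edgeR; 2.02 after GC correction). The AGS libraries were all between 581 and 739, so that the HGC-27 control alone was low.

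RPL29 and RPL18 were called higher, and lost most of their size with the GC correction. RPL29, a heparin-binding ribosomal protein, was at 520 and 579 scaled CPM in HGC-27 NINJ1, against 181 in the HGC-27 control (log2 difference 1.60, SE 0.14, adjusted p 6.03e-12, edgeR), and at 0.15 after GC correction (adjusted p 0.206). RPL18 was at 344 and 418 scaled CPM, against 146 in the control, with a log2 difference of 1.39 (SE 0.14, adjusted p 4.12e-10, edgeR) and at 0.26 after correction. RPL17, also called higher, had 18 and 21 counts in HGC-27 NINJ1 and 3 counts in the control, so no fold is given for it.

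Of the paralogues and parents, RPS27L was lower in HGC-27 NINJ1 (log2 difference -1.41, adjusted p 2.87e-09, edgeR), as were RPL36AL (-1.57, adjusted p 3.26e-08) and RPL39 (-1.45, adjusted p 4.85e-08), while RPL36A was higher (0.94, adjusted p 0.000615). RPL26L1 was lower (-0.57, adjusted p 0.00233, edgeR). RPL22L1 was at -0.41 (adjusted p 0.0312, edgeR) and turned to 0.094 after GC correction.

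The test of the difference between the lines, AGS minus HGC-27 in the NINJ1 minus control contrast, called 36 members higher and 20 lower, where 54.2% of all genes were called (23.9% higher and 30.2% lower). After GC correction 35 were higher and 8 lower, where 35.3% of all genes were called (18.9% higher and 16.4% lower). With limma on log2(FPKM + 1) 19 were higher and 21 lower, where 15.7% of all genes were higher and 35.6% lower. RPS29 differed by 2.08 (SE 0.20, adjusted p 2.29e-10, edgeR), and RPL10 by -2.85 (SE 0.19, adjusted p 2.37e-14, edgeR). RPL8, a member of 63.1% GC, differed by -2.18 (SE 0.28, adjusted p 4.45e-08, edgeR) and by 0.40 after GC correction. Both lines' contrasts share no library, and each rests on 1 control.

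Over both lines together, with line as a term, NINJ1 against control called 0 members, as it called 0% of all genes; 23 members had an unadjusted p under 0.05. DESeq2 called RPS29 lower (log2 difference -1.81, adjusted p 0.0261) and no other member, where it called 1.76% of genes. The median member difference was -0.25, against 0.025 for all genes. After GC correction 0 members were called too (36 at an unadjusted p under 0.05), where 1.86% of all genes were (0.324% higher and 1.53% lower). RPS29 was at -1.78 (SE 0.47, adjusted p 0.366, edgeR) and RPL41 at -1.07 (SE 0.30, adjusted p 0.368); RPL17 was at 1.31 (SE 0.61, adjusted p 0.406) and RPLP1, a stalk protein, at 0.55 (SE 0.34, adjusted p 0.466). Without the HGC-27 control, whose line then gives no contrast, 2 members were higher and 6 lower as in AGS alone, where 15.8% of all genes were called, and without the AGS control 18 were higher and 40 lower, where 64.1% were.

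Other genes of the pathway were counted on lists chosen for their roles. FAU and RACK1 encode ribosomal proteins outside the naming pattern. Both were lower in HGC-27 NINJ1 (log2 differences -1.69 and -0.33), and neither passed the test in AGS (0.18 and -0.33). Of 14 tested translation genes whose mRNAs are known to start with the TOP motif, 2 were higher and 12 lower in HGC-27 NINJ1 (median -1.17). TPT1 was at -2.11 among the lower and EEF1D at 2.64 among the higher. Of all genes 34% were higher and 29.1% lower there. After GC correction 1 was higher and 12 lower, where 22.8% of all genes were higher and 26.4% lower. In AGS 0 were higher and 1 lower, PABPC1, the poly(A)-binding protein (-0.36, adjusted p 0.0394, edgeR), with a median of -0.15. Among all genes 5.73% were higher and 9.3% lower in AGS.

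Of 20 ribosome assembly factors, 4 were higher and 0 lower in the AGS libraries labelled NINJ1 (median 0.28), among them PNO1 (0.88) and RRP9 (0.73), which act in assembly of the small subunit. Of 11 RNA polymerase I genes, 4 were higher and 0 lower (median 0.19), among them POLR1A, its largest subunit (0.61), and RRN3 (0.50). Of 78 genes of the mitochondrial ribosome 6 were higher and 0 lower (median 0.15), MRPL27 (0.91) and MRPL18 (0.73) with the smallest p. Of all genes 5.73% were higher and 9.3% lower there. In HGC-27, where 34% of all genes were higher and 29.1% lower, 7 assembly factors were higher and 9 lower (6 and 8 after GC correction), 2 RNA polymerase I genes were higher and 7 lower (4 and 4), and 27 genes of the mitochondrial ribosome were higher and 35 lower (13 and 30). With GC correction 22.8% of all genes were higher and 26.4% lower in HGC-27 NINJ1. Of 9 regulators of ribosomal protein mRNA, 0 passed in AGS and all 9 in HGC-27, 5 higher and 4 lower, but 1 higher and 5 lower after GC correction. EIF4EBP1, a repressor of cap-dependent translation, was at 2.69 before and 0.016 after that correction, and EIF4EBP2 at -1.52 and -1.09.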

How the data were processed

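Per the file headers, the deposited tables hold for each library a raw read count and the authors' FPKM for 51103 Ensembl genes, 1 table per library. The submitters' processing notes name GRCh38 as the build, HISAT2, and version 0.13.5 of HTSeq; the annotation release and strand setting are not given in the sources used here. The deposited FPKM equals the count over 1 fixed length per gene and the library total (largest relative departure 7.47e-10 over 81 members with at least 200 counts), so it carries no information beyond the count and a length.

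Counts of all genes were kept by filterByExpr (minimum count 10; 17617 genes), scaled by TMM and tested with edgeR 4.0.16 (R 4.3.3), two-sided, Benjamini-Hochberg adjusted p under 0.05. One model had a mean per line and treatment; the comparisons over both lines and over all libraries had line and treatment as terms. The standard error is the log2 difference over the square root of F. The GC correction was an offset from a loess curve (span 0.3) of each library on the GC content of the longest GENCODE transcript. DESeq2 1.42.0, limma 3.58.1 on log2(FPKM + 1) and log2(FPKM + 0.1), other scalings, no filter, lines as titled, 4 undisputed libraries, a replicate block and each library left out were alternatives. The model was tested on simulated data.

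Members and lists were chosen with earlier results of these data known. Named are up to 5 members per direction with the smallest p among those called (2 where none was), the 3 highest and 3 lowest by mean FPKM, the paralogue pairs, NINJ1 and up to 2 genes of each other list. RPL32 in AGS, the overlapping genes and markers were named after their values were seen. Some genes the rule would name are not reported here, nor drawn in the figures, but enter all counts. Sequences are from RefSeq, and sequence of genes on chromosome 8 was not used.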

Additional observations from a re-analysis of the deposited data

Results flagged for a closer look

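The contrast of NINJ1 with control differed between AGS and HGC-27, by a test of the difference itself (edgeR, adjusted p under 0.05), for the members below. Values are log2 differences, AGS minus HGC-27, and each line has 1 control library. The positive differences with the smallest p were RPS29 (2.08), RPL38 (2.06), RPS20 (1.87), RPL7 (1.74) and RPL34 (1.65): all 5 lay far below the control in HGC-27, and RPS29 was also lower in the AGS libraries labelled NINJ1. Negative ones were RPL10 (-2.85), RPL8 (-2.18) and RPL29 (-1.71). After GC correction RPL8 was at 0.40 (adjusted p 0.201) and RPL29 at -0.13 (adjusted p 0.49), while RPL10 (-2.27) kept its sign and passed.

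Among paralogue pairs, differences past the threshold were RPL36AL (1.91), RPL39 (1.14), RPS27L (1.04), RPL22L1 (0.94), RPL26L1 (0.73), RPL7L1 (0.51) and RPL36A (-1.47). RPL22L1 was the only one of these 7 that was higher in the AGS libraries labelled NINJ1 and lower in HGC-27 NINJ1 with both contrasts past the threshold, and its difference was 0.36 (adjusted p 0.163) after GC correction. NINJ1 itself differed by -2.57, being lower in the AGS libraries labelled NINJ1 and higher in HGC-27 NINJ1. The HGC-27 control held 2.31% of its counts in genes of over 60% GC, against 9.25% to 11.3% elsewhere.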

How the results depend on the processing

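Counts are members higher and lower. With the lines as titled, they were 4 and 10 in HGC-27, where 9.17% of all genes were higher and 3.03% lower. They were 0 and 0 in AGS and in the difference between lines, where 0% of all genes were called. They were also 0 and 0 in AGS against HGC-27, in the NINJ1 libraries and over all libraries, again with 0% of all genes. Named members then turned sign in the NINJ1 libraries (RPS20 -0.045, RPL7 -0.044, RPL26L1 0.20, RPL8 0.63, RPS6 0.084, RPL28 0.25, RPL3 -0.021, RPL39 0.51, RPL39L -0.0021), in HGC-27 (RPL22L1 0.15) and in the difference (RPL22L1 -0.016). With 4 undisputed libraries AGS against HGC-27 gave 0 and 0. GC correction gave 15 lower and 1 higher in AGS, 9 higher in HGC-27, 8 lower in the difference, and 6 and 8 in AGS against HGC-27 over all libraries; it reversed RPL8 (0.40 in the difference) and RPL22L1 (0.094 in HGC-27). DESeq2 gave 1 lower over both lines, 3 and 3 over all libraries and 0 higher in AGS. limma on log2(FPKM + 1) and log2(FPKM + 0.1) gave 0 and 0 in AGS, 27 lower in HGC-27, 19 and 20 higher in the difference, 7 and 6 lower in the NINJ1 libraries, and 3 and 2 higher over all libraries. DESeq2 size factors, and scaling without members and mitochondrial genes, each gave 1 higher in AGS, where 5.1% and 5.69% of all genes were higher. No filter gave 11 lower there, where 5.47% of all genes were lower.

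Same-numbered NINJ1 libraries deviated with a correlation of 0.0084 over 17617 genes, so no shared deviation was seen. This cannot say whether same-numbered libraries were handled together. With the replicate block, counts were 15 lower in AGS and 0 and 0 in AGS against HGC-27 over all libraries; no other count moved by over 1.5 times. The replicate block with GC correction gave 34 lower in AGS, 10 higher in HGC-27, 11 lower in the difference, 20 lower in the NINJ1 libraries and 3 and 3 over all libraries, with RPL8 at 0.44 and RPL22L1 at 0.094. Of all genes, this setting called 12.7% lower in AGS, 23.9% higher in HGC-27, 18% lower in the difference and 24.1% lower in the NINJ1 libraries. Over all libraries it called 5.28% higher and 5.13% lower.

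Leaving out 1 library gave 0 to 18 higher and 0 to 40 lower over both lines, 0 to 3 and 1 to 36 in AGS, 16 to 22 and 40 to 52 in HGC-27, 30 to 44 and 15 to 25 in the difference, 17 to 42 and 9 to 30 in the NINJ1 libraries, and 0 to 32 and 0 to 13 over all libraries. RPLP1 over both lines ran from -0.037 (without the HGC-27 control) to 1.30, and RPL39 in the NINJ1 libraries from -0.99 to 0.024 (without HGC-27 NINJ1 replicate 2). Medians in place of sums turned large over small to -0.79, -0.71 and -0.70 in AGS and -0.51, -0.27 and -0.78 in HGC-27. The cause of these changes was not tested. The small gaps between NINJ1 replicates and the lone controls limit every contrast with control.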
